A study of Mus musculus with 68 samples.

Results

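Genes of Nodal and BMP signalling were followed through oocytes and embryos of the mouse. They were chosen by name: Nodal, Lefty1, Lefty2, Tdgf1, Gdf3, Bmp4, Id1, Id2 and Id3, 9 of 24941 genes that the 8 tables name. The libraries were prepared from polyadenylated RNA with Smart-seq2, which copies whole transcripts from a few cells, and the values are FPKM (fragments scaled by transcript length and by the library's mapped total). The series deletes Ezhip, an X-linked gene whose product inhibits the H3K27 methyltransferase complex PRC2, and compares wild type (WT) with Ezhip KO and Ezhip Het oocytes and with embryos labelled Ezhip mKO and Ezhip mHet. The oocytes are labelled FGO and comprise 2 WT, 2 Het and 3 KO libraries. For embryos, every genotype has 2 libraries at the 1-cell stage, at the late 2-cell stage, in a first table of E3.5 and in each tissue of E6.5 (epiblast, extraembryonic ectoderm). At the 8-cell stage there are 2 WT, 3 mKO and 1 mHet library, in a second table of E3.5 there are 5 a genotype, and at E4.25 there are 4 WT and 4 mKO. For E4.25 mHet both columns hold the same values and count as 1, so 67 of 68 libraries are used. The labels give no strain, maternal age, Cre line or deleted segment, do not spell out mKO and mHet, and do not say how many embryos a library holds or whether libraries come from separate animals, so the p-values rest on a spread among samples that could be purely technical.

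Nodal is a secreted ligand of the TGF-beta family that signals through activin receptors with the help of the co-receptor Tdgf1 (Cripto), and the phosphorylated Smads act with the DNA-binding partner Foxh1. It sustains the epiblast and patterns it, and it induces its own inhibitors, Lefty1 and Lefty2. Bmp4 is made by the extraembryonic ectoderm of the early postimplantation embryo and acts on the neighbouring epiblast, where it is needed for mesoderm and primordial germ cells. Id1, Id2 and Id3 are classical BMP targets whose proteins bind E proteins, a family of helix-loop-helix transcription factors, and keep them from DNA.

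Read depth is unknown from FPKM, and fewest genes reached 1 FPKM in the second E3.5 table (4940 to 8404 a library) and at E4.25 (5923 to 8988). Ezhip was at 297 to 546 FPKM in WT oocytes and at most 0.175 in KO oocytes, and from the 8-cell stage on it was too low in every genotype to check a label. Several libraries stood apart. The extraembryonic ectoderm library WT 1 held more of some epiblast genes (Pou5f1 at 18.3 and Nanog at 12.6 FPKM, against 2.37 and 0.90 in WT 2). Of the 7 epiblast markers, Utf1 (97.4 against 192 FPKM) and Pou3f1 (10.5 against 11.2 FPKM) were lower in WT 1. The 7 summed to 236 FPKM in WT 1 and 283 FPKM in WT 2. The epiblast library mKO 3 held extraembryonic ectoderm genes (Elf5 at 18.4 FPKM, against 0.06 in mKO 4). Epiblast library mHet 4 held less Elf5 (5.02 FPKM), and the extraembryonic ectoderm library mKO 2 held genes of visceral endoderm (Apoa4 at 21.0 FPKM). At E4.25, WT 3 listed the trophectoderm gene Cdx2 at 0 and held the globin gene Hba-a1 at 8.85 FPKM.

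In WT libraries the 9 genes came on at different stages. Oocytes and 1-cell embryos held little of any except Id2 and Id3, Tdgf1 and Gdf3 were at high levels by the 8-cell stage, Id2 by E3.5, and Nodal, Lefty2 and Bmp4 in the E6.5 tissues. Since the tables were normalized separately, the order of stages is a description.

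Among the ligands, Nodal was listed at 0 in every oocyte and 1-cell library and reached at most 0.785 FPKM from the 8-cell stage to E4.25. It stood at 0.403 and 0.586 FPKM in late 2-cell WT embryos and at 16.3 and 11.7 FPKM in the WT epiblast. Gdf3, a related ligand that also needs Tdgf1, was at 8.24 and 23.4 FPKM in 8-cell WT embryos, 6.98 and 13.6 FPKM in the first E3.5 table, and 3.09, 5.11 and 12.8 FPKM as the lowest, median and highest of the second. Bmp4 was listed at 0 in all 7 oocyte libraries, reached 5.92 and 0.593 FPKM in WT embryos of the first E3.5 table, and stood at 12.3, 6.24, 1.08 and 0.965 FPKM in E4.25 WT libraries 1 to 4. Its WT level was then 0.828 and 1.05 FPKM in the epiblast and 52.5 and 61.6 FPKM in the extraembryonic ectoderm. Rows for Bmp4, Lefty1 and Lefty2 are not in the 1-cell, late 2-cell and 8-cell tables used here.

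The co-receptor Tdgf1 was at 30.4 and 70.3 FPKM in 8-cell WT embryos, and its WT mean of 50.3 FPKM exceeded that of 85.3% of the genes kept there. It stood at 15.5 and 43.3 FPKM in the first E3.5 table, and at 160 and 121 FPKM in the WT epiblast. Of the inhibitors, the highest value of either Lefty gene up to E4.25 was 1.80 FPKM, for Lefty1 in WT 2 of that age. In the WT epiblast Lefty2 was at 8.35 and 3.63 FPKM and Lefty1 at 3.87 and 0.556 FPKM. The epiblast ranges of both Lefty genes overlap, so their order is not settled.

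The 3 Id genes had distinct courses. Id3 was at 0.203 and 0.309 FPKM in late 2-cell WT embryos and at 117 and 392 FPKM in 8-cell WT embryos, where its mean exceeded that of 96.7% of the genes kept. Id2 was at 3.58 and 2.73 FPKM at the 8-cell stage and at 406 and 642 FPKM in the first E3.5 table. At E4.25 its WT mean of 227 FPKM exceeded that of 99.7% of the genes kept. Id1 was at most 0.304 FPKM in WT embryos of both E3.5 tables, and stood at 13.0, 29.8, 37.4 and 0 FPKM in E4.25 WT libraries 1 to 4.

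**Figure D1:**
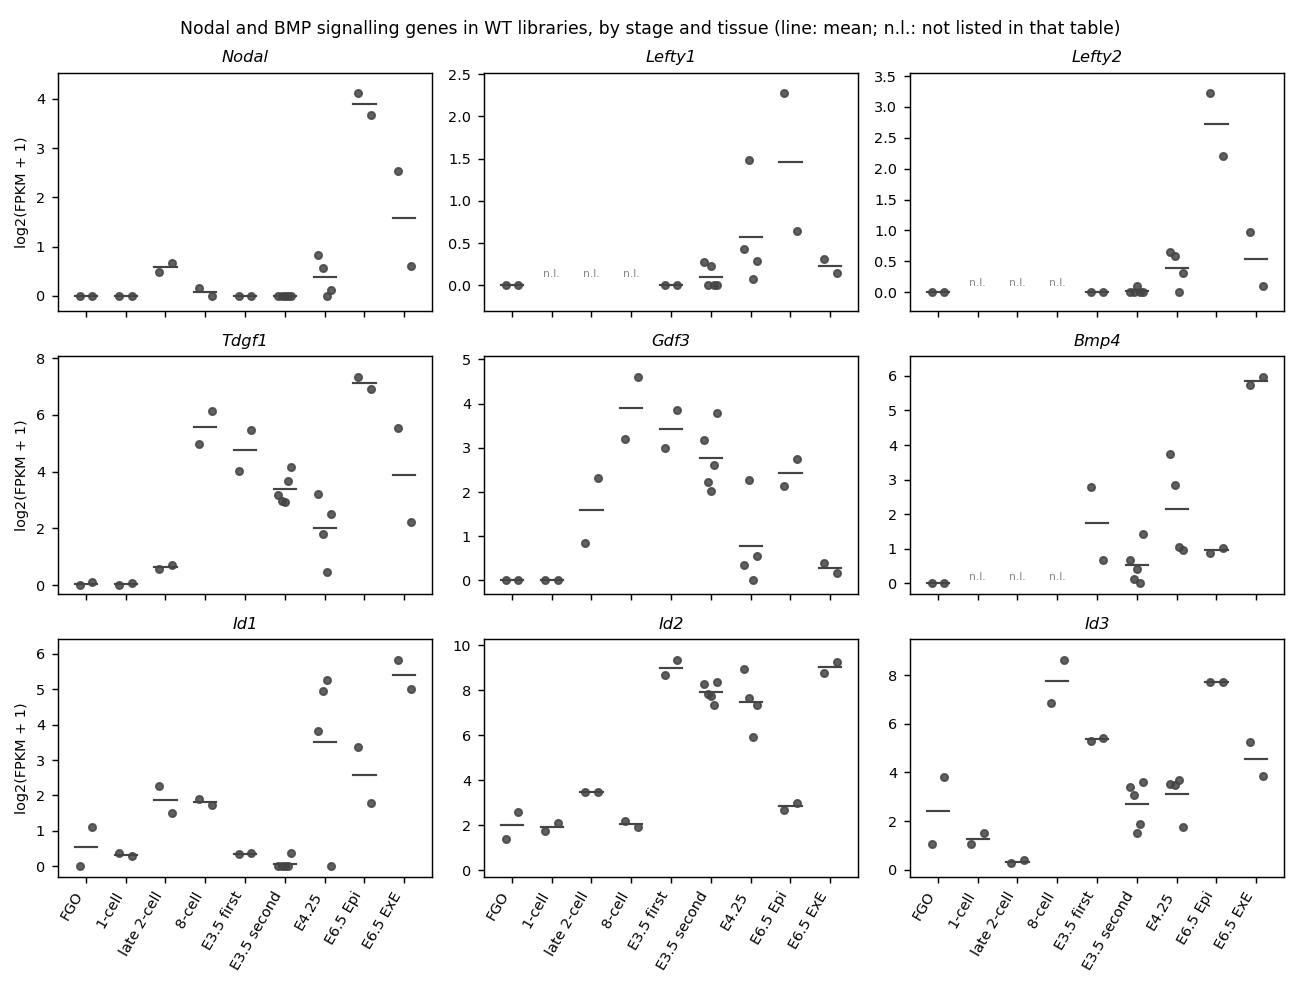
Level of each of the 9 genes as log2(FPKM + 1) in every WT library (points, with a line at the mean of the points) by table, with the E6.5 tissues apart. Tdgf1 and Id3 are high at the 8-cell stage and again in the epiblast, Id2 from E3.5 on except in the epiblast, Nodal in the epiblast, and Bmp4 in the extraembryonic ectoderm.

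At E6.5 the genes split by tissue. In a fit over all genotypes with the tissues as a contrast, Bmp4 and Id2 were higher in the extraembryonic ectoderm, Nodal, Tdgf1, Gdf3, Lefty1, Lefty2 and Id3 were higher in the epiblast, and Id1 passed in neither direction. Thus 8 of 9 genes passed an adjusted p of 0.05 (limma), where 33.5% of all 11028 genes tested did. Gdf3, Lefty1 and Lefty2 reached 1 FPKM in no extraembryonic ectoderm library. They were kept for the test only through the epiblast, so their direction was partly set by the filter. The median log2 change was -2.40 over the 9 genes and -0.11 over all genes. Bulk libraries cannot tell fewer cells of a type from less RNA per cell.

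Nodal was at 11.7, 16.5 and 50.1 FPKM as the lowest, median and highest of 6 epiblast libraries, and at 0, 0.489 and 4.78 FPKM in 6 extraembryonic ectoderm libraries. The groups did not overlap, and the log2 change was -3.68 (SE 0.32, limma adjusted p = 3.23e-06). Its highest extraembryonic value came from WT 1, the library of that tissue with the most Pou5f1 and Nanog. Gdf3 was at 2.41, 4.55 and 19.7 FPKM in the epiblast and at most 0.314 FPKM in the other tissue, with a log2 change of -2.51 (SE 0.20, limma adjusted p = 1.97e-06).

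Tdgf1 was at 73.1, 109 and 165 FPKM in the epiblast and at 0.248, 1.45 and 45.1 FPKM in the extraembryonic ectoderm. Its log2 change of -4.96 (SE 0.47, limma adjusted p = 5.79e-06) was the widest of the 9 genes over all genotypes, and the value of 45.1 was again WT 1. Lefty1 ranged from 0.556 to 33.6 FPKM in the epiblast and reached at most 0.307 FPKM in the extraembryonic ectoderm (log2 change -2.40, SE 0.27, limma adjusted p = 2.30e-05). Lefty2 overlapped between the tissues, because the epiblast library mKO 3 held 0.343 FPKM and the extraembryonic library WT 1 held 0.969 FPKM, and its log2 change was -1.97 (SE 0.40, limma adjusted p = 0.00225). With the WT libraries alone in the contrast both Lefty calls ended (limma adjusted p = 0.122 for Lefty1 and 0.0642 for Lefty2), while Nodal, Tdgf1 and Gdf3 stayed past the threshold.

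Bmp4 was at 52.5, 60.4 and 71.4 FPKM as the lowest, median and highest extraembryonic ectoderm library, a narrow range over all genotypes. In the epiblast it was at 0.828, 1.04 and 18.9 FPKM, and the log2 change was 4.11 (SE 0.47, limma adjusted p = 2.98e-05). The epiblast value of 18.9 FPKM came from mKO 3, which held Elf5, and the next, 5.95 FPKM, from mHet 4. What the neighbouring tissue gave to these values was not tested.

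Within the Id family the tissue pattern was opposite for Id2 and Id3. Id2 was at 438, 696 and 850 FPKM in the extraembryonic ectoderm and at 5.40, 47.4 and 134 FPKM in the epiblast (log2 change 4.38, SE 0.49, limma adjusted p = 2.23e-05). Id3 was at 2.10, 8.59 and 37.6 FPKM in the extraembryonic ectoderm and at 117, 209 and 495 FPKM in the epiblast (log2 change -4.62, SE 0.34, limma adjusted p = 9.88e-07). Neither gene's tissues overlapped in any library. Id1 ranged from 13.2 to 55.8 FPKM in the extraembryonic ectoderm and from 2.45 to 185 FPKM in the epiblast, so its tissues overlapped. Over all genotypes its log2 change was 0.25 (SE 0.33, 95% confidence interval -0.47 to 0.98, limma adjusted p = 0.594). Within WT its tissues did not overlap, at 55.8 and 31.2 FPKM in the extraembryonic ectoderm and 9.31 and 2.45 FPKM in the epiblast. With the WT libraries alone in the contrast Id1 passed, higher in the extraembryonic ectoderm. The highest epiblast values, 79.0 and 185 FPKM, were those of mHet.

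The 250 bases before the RefSeq start of Id2, Id3 and Tdgf1 are shown because these genes have the widest tissue differences for which a window was matched (5 of 9 genes matched, RefSeq on GRCm38.p6). Capitals mark matches on either strand to 3 motifs. These were the GC-rich site bound by BMP Smads, spelled GGCGCC, the Smad box, spelled CAGAC, and the core of the FOXH1 motif, spelled AATNNACA. The Id2 window is chr12:25096093-25096342 on the minus strand, Id3 is chr4:136143572-136143821 on the plus strand and Tdgf1 is chr9:110946159-110946408 on the minus strand.
Id2: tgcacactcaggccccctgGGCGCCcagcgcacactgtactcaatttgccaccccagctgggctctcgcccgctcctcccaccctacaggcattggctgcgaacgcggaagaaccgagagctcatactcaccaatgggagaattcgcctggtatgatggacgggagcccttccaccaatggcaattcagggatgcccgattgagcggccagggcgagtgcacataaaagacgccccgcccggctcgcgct
Id3: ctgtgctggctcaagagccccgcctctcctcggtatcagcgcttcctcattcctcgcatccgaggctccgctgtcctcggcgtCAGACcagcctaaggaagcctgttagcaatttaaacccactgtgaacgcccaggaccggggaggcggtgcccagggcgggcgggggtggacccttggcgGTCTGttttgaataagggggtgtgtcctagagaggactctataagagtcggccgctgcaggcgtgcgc
Tdgf1: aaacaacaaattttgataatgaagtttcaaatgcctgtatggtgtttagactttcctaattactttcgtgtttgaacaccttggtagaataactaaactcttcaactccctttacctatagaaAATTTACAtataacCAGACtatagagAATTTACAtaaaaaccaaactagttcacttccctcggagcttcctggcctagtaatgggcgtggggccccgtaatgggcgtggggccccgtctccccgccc
Id2 has 1 match to GGCGCC, which 9.59% of 32851 such windows hold. Id3 has 2 matches to the Smad box, held by 42.2% of windows. Tdgf1 has 1 match to the Smad box and 2 to the FOXH1 motif, held by 10.9%. The matches did not overlap each other, and none of the 3 motifs was found in the Nodal and Bmp4 windows. A match describes letters and not a bound site.

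Other genes of the pathways were taken from a list of 71, of which 49 were tested at E6.5. In the tissue contrast 14 were higher in the extraembryonic ectoderm and 14 in the epiblast, beside 33.5% of all genes in either direction, and the list's median log2 change was -0.17. All 3 other BMP ligands tested were higher in the extraembryonic ectoderm, among them Bmp8b at 25.6 ± 7.50 against 1.45 ± 2.15 FPKM in the epiblast (SD, n = 6 libraries a tissue; log2 change 3.71, SE 0.36, limma adjusted p = 6.96e-06). Of 5 BMP targets 3 were higher there, led by Hand1, a trophoblast transcription factor (54.4 ± 30.8 against 1.05 ± 1.45 FPKM, log2 change 4.83, limma adjusted p = 4.26e-07). Both convertases were higher too, including Pcsk6, a protease that cleaves the Nodal precursor (log2 change 2.46, limma adjusted p = 1.15e-06). Eomes, a Nodal target that also marks trophoblast, had a log2 change of 2.11 (limma adjusted p = 0.000324).

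On the epiblast side stood Foxh1, at 51.6 ± 11.9 against 4.37 ± 4.17 FPKM in the extraembryonic ectoderm (log2 change -3.64, SE 0.34, limma adjusted p = 6.09e-06). Gdf1, a ligand that pairs with Nodal, was at 8.58 ± 1.80 against 0.249 ± 0.233 FPKM (log2 change -2.93, limma adjusted p = 3.79e-07). At these values Gdf1 was kept for the test only through the epiblast, so its direction was partly set by the filter. Tgif1, a corepressor of Smads, had a log2 change of -1.92 (limma adjusted p = 4.57e-05). All 3 E proteins, the partners of Id proteins, were higher in the epiblast, with Tcf12 at 11.8 ± 2.07 against 3.20 ± 1.29 FPKM (log2 change -1.66, limma adjusted p = 3.85e-05).

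**Figure D2:**
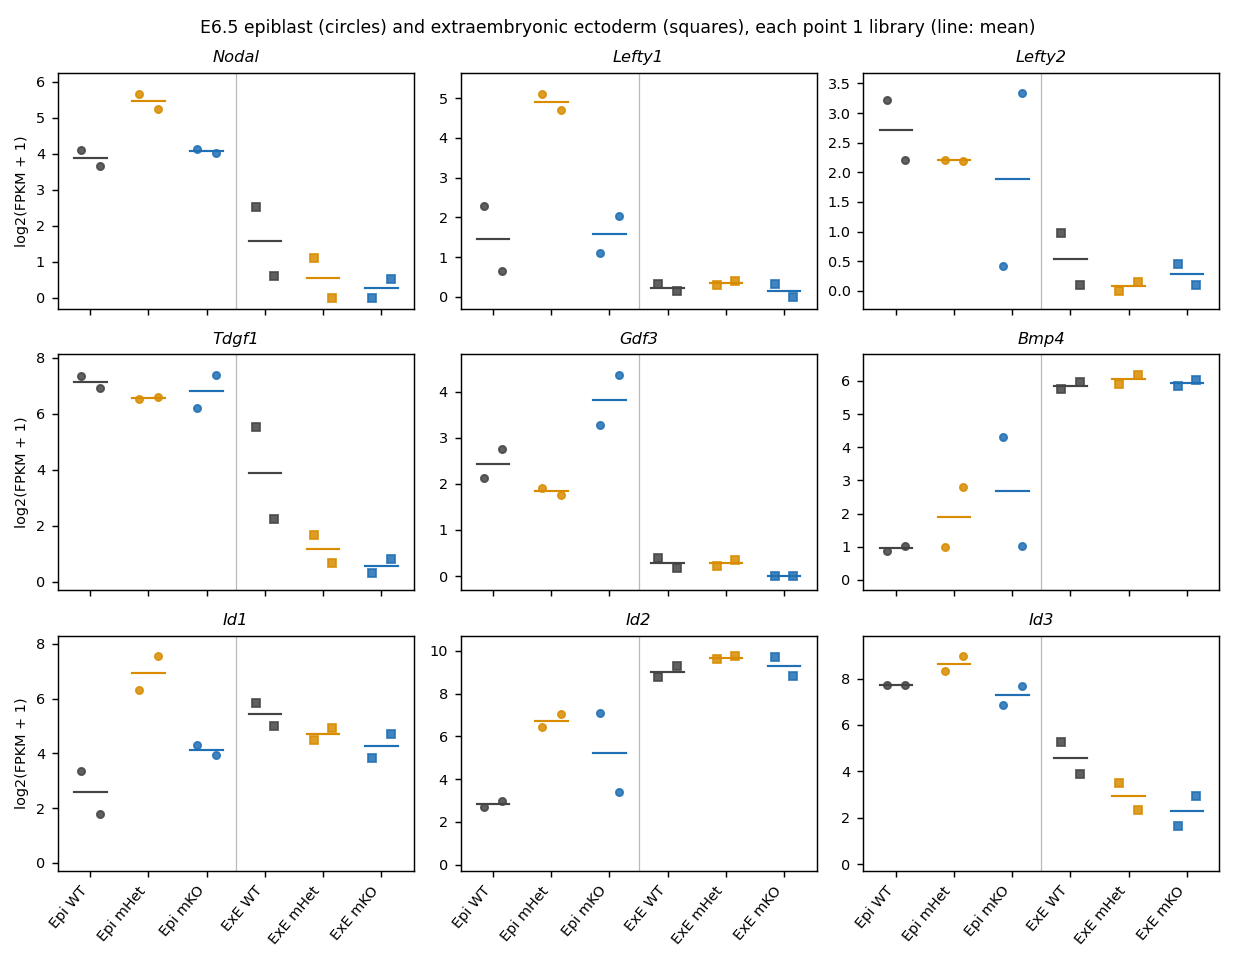
Level of each gene as log2(FPKM + 1) in the 12 E6.5 libraries, with 2 libraries and their mean (line) for each genotype in epiblast (circles) and extraembryonic ectoderm (squares). Lefty1 and Id1 are highest in both epiblast mHet libraries, and Bmp4 and Id2 are high in every extraembryonic ectoderm library.

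The genotypes were then compared within the E6.5 epiblast. Lefty1 and Id1 were higher in mHet than in WT epiblast and were 2 of only 3 genes called of 11028 (limma, 0.0272% of genes), the other being Casc4, which was lower and is named after its value was seen. No member was called in mKO against WT, where 0.00907% of genes were called, or in mKO against mHet, where 0% were. At an unadjusted p under 0.05 stood 3 of 9 members and 4.44% of all genes in the first, and 5 of 9 members and 2.46% of all genes in the second.

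Lefty1 was at 33.6 and 24.8 FPKM in mHet libraries 3 and 4, at 3.87 and 0.556 FPKM in WT and at 1.16 and 3.12 FPKM in mKO. The mHet values lay above those of all other libraries for which Lefty1 is listed. The log2 change against WT was 3.44 (SE 0.46, limma adjusted p = 0.0294), and against mHet the mKO change was -3.33 (SE 0.46), which had the smallest p-value of all genes in that comparison but did not pass (limma adjusted p = 0.124; 0.0418 with a sex term). Lefty2, its paralog, stood at 3.63 and 3.57 FPKM in mHet and 8.35 and 3.63 FPKM in WT, and its change of -0.52 did not pass (SE 0.70, limma adjusted p = 1). For Lefty1 the limma adjusted p over the alternatives ran from 0.00614 to 0.678.

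Id1 was at 79.0 and 185 FPKM in mHet, at 9.31 and 2.45 FPKM in WT and at 19.0 and 14.2 FPKM in mKO epiblast. All 3 genotypes were apart, with a log2 change of 4.36 in mHet against WT (SE 0.57, limma adjusted p = 0.0294, 0.0014 to 0.385 over the alternatives). The changes in mKO against WT (1.55, SE 0.57, limma adjusted p = 1) and against mHet (-2.81, SE 0.57, limma adjusted p = 0.577) did not pass. Both calls in mHet ended when WT 4, mHet 3 or mHet 4 was left out, and also when the epiblast libraries were fitted without the other tissue, a fit added after seeing the data (limma adjusted p = 0.406 for Lefty1 and 0.293 for Id1), or WT and mHet alone (0.192 each), while the log2 change stayed at 2.62 or more for Lefty1 and at 3.57 or more for Id1.

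Id2 was at 85.3 and 131 FPKM in mHet and at 5.40 and 6.91 FPKM in WT epiblast, a log2 change of 3.91 that did not pass (SE 0.84, limma adjusted p = 0.401). When the epiblast library mKO 3 and the extraembryonic library WT 1 were dropped, an alternative chosen after seeing the data, Id2 passed (limma adjusted p = 0.0303), Lefty1 did too (0.0476) and Id1 did not (0.0541). With the WT and mHet epiblast fitted alone Id2 was the only member to pass (0.0212). In mKO it was at 134 FPKM in library 3, which held Elf5, and at 9.56 FPKM in library 4. Nodal was at 50.1 and 36.8 FPKM in mHet against 16.3 and 11.7 FPKM in WT and 16.7 and 15.3 FPKM in mKO, and its mHet change of 1.57 did not pass (SE 0.55, limma adjusted p = 1). Id3 was at 324 and 495 FPKM in mHet and 208 and 211 FPKM in WT.

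In all, 5 of the 9 genes were above every WT library in both mHet libraries, namely Lefty1, Id1, Id2, Nodal and Id3, where 19.7% of all genes were. Gdf3 and Tdgf1 were instead below both WT libraries in both mHet libraries, as were 14.4% of genes. Extraembryonic ectoderm markers (7 genes) summed to 10.7 and 30.8 FPKM in mHet and to 31.2 and 10.2 FPKM in WT epiblast, most of it Eomes, which the epiblast also expresses. The other 6 genes summed to 2.33 and 10.9 FPKM in mHet 3 and 4 and to 0.97 and 1.11 FPKM in WT, so they were higher in both mHet libraries. Of the 7 genes 2 and 5 were at 1 FPKM or more in mHet and 1 in each WT library, with Ascl2 at 1.73 and 2.42 FPKM in mHet and 0.584 and 0.871 FPKM in WT. Elf5 was listed at 0 in mHet 3 and stood at 5.02 FPKM in mHet 4. Visceral endoderm markers (8 genes), of a tissue that also makes Lefty1 and Id1, summed to 3.00 and 2.68 FPKM in mHet and to 3.43 and 0.801 FPKM in WT. Of these 8 genes, Afp was at 0.416 and 0.184 FPKM in mHet and listed at 0 in WT. Ttr was at 0.215 and 0.289 FPKM in mHet and 0.0983 and 0 FPKM in WT. Apoa1, Amn, Rbp4 and Cer1 overlapped between these genotypes, with Rbp4 highest in WT 3 (1.83 FPKM) and Amn in WT 4 (0.259 FPKM). Apoa4 and Apob were listed at 0 in all 4 libraries. The part of either tissue in the Lefty1, Id1 and Id2 values was not tested. Y-linked transcripts were at 1 FPKM or more in 1 of 2 WT and in neither mHet epiblast library, and both calls stayed with a sex term (limma adjusted p = 0.0181 for each). None of the 49 other pathway genes passed in mHet against WT (4 at an unadjusted p under 0.05), and the list's median log2 change was 0.11 against 0.03 over all genes.

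Gdf3 stood at 8.65 and 19.7 FPKM in mKO epiblast, above 3.40 and 5.71 FPKM in WT and 2.75 and 2.41 FPKM in mHet. Its log2 change of 1.38 against WT did not pass (SE 0.35, limma adjusted p = 0.873). Against mHet it was 1.98 (SE 0.35, limma adjusted p = 0.4). The genotypes did not overlap for this gene. Of the 49 other pathway genes none passed in mKO against WT and 4 had an unadjusted p under 0.05.

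**Figure D3:**
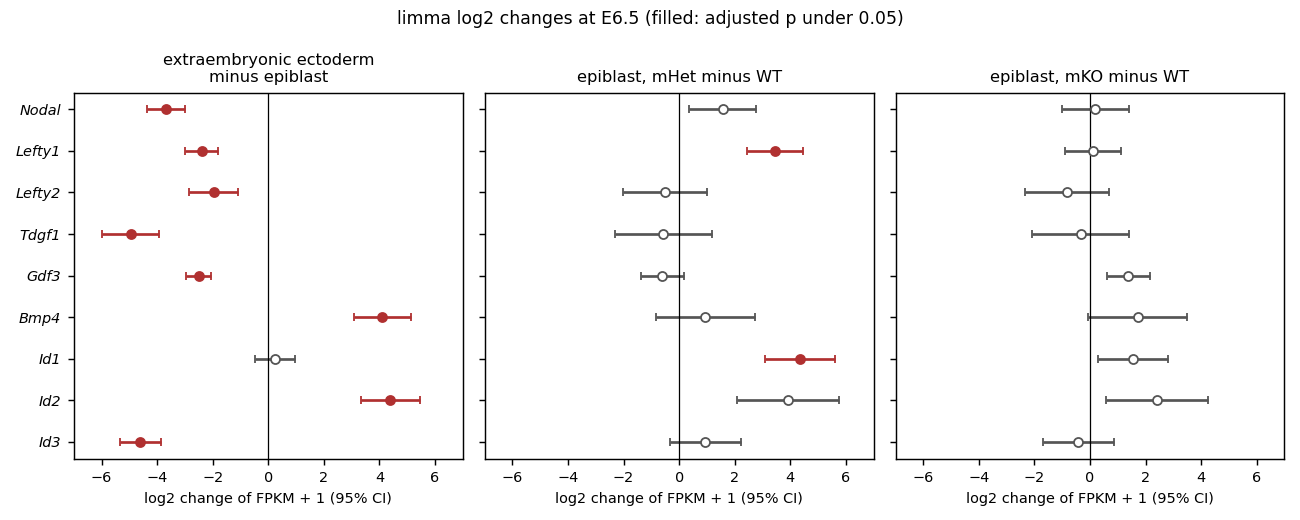
Log2 change of FPKM + 1 with its 95% confidence interval (limma) for the 9 genes between the E6.5 tissues over all genotypes, and in mHet and mKO against WT within the epiblast, with filled points for an adjusted p under 0.05. In the tissue contrast 8 of 9 genes are filled, in mHet Lefty1 and Id1 are, and in mKO none is.

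Within the extraembryonic ectoderm no member passed in mKO against WT (0% of genes called), in mHet against WT (0% called) or in mKO against mHet (0.00907% called). At an unadjusted p under 0.05 stood 3, 2 and 0 of 9 members, beside 7.74%, 5.89% and 2.47% of all genes. Bmp4 stood at 52.5 and 61.6 FPKM in WT, 59.3 and 71.4 FPKM in mHet and 56.3 and 64.7 FPKM in mKO, and the genotypes overlapped (mKO log2 change 0.08, 95% confidence interval -1.70 to 1.87). Id2 overlapped between mKO (841 and 450 FPKM) and WT (438 and 619 FPKM). In mKO 5 of 9 genes (Id1, Id3, Gdf3, Tdgf1 and Nodal) were below both WT libraries, where 37.4% of all genes were, and the median change of all genes was -0.19 (log2). Of these, Gdf3 was near 0 throughout, at 0.314 and 0.128 FPKM in WT and 0 in both mKO libraries. The order of Nodal rests on 0.530 FPKM in WT 2 against 0.449 FPKM in mKO 2.

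The 3 genes with the lowest p-values there were Tdgf1, Id3 and Nodal, all highest in WT 1. Tdgf1 was at 45.1 and 3.74 FPKM in WT and at 0.248 and 0.758 FPKM in mKO (log2 change -3.32, SE 0.81, limma adjusted p = 0.348). Without WT 1 the change was -1.68 (limma adjusted p = 1), and without WT 2 it was -4.96 and passed (0.0469). Id3 was at 37.6 and 13.7 FPKM in WT and 2.10 and 6.76 FPKM in mKO (log2 change -2.28, SE 0.59, limma adjusted p = 0.386; -1.58 without WT 1). Nodal was at 4.78 and 0.530 FPKM in WT and at 0 and 0.449 FPKM in mKO, and its change of -1.30 became -0.35 without WT 1 (limma adjusted p = 0.613 and 1).

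Whether genotype effects differed between the tissues was tested as an interaction. No member passed for mKO (0% of genes called) or for mHet (0% called). At an unadjusted p under 0.05 stood 4 and 5 of 9 members, beside 3.41% and 1.80% of all genes. The mHet comparison was added after seeing the data. In it Id1 had the smallest p-value of all genes, with a log2 difference of -5.07 between extraembryonic ectoderm and epiblast (SE 0.81, limma adjusted p = 0.294), and Lefty1 had -3.33 (SE 0.66, limma adjusted p = 0.643). Without the extraembryonic ectoderm library mHet 1, 4 members passed (Id1, Id3, Lefty1 and Nodal), among 564 genes in all. The same omission gave 2 members and 2609 genes in mHet against WT within that tissue.

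At E4.25, the age just before implantation, Gdf3 and Tdgf1 were higher and Id1 lower in mKO than in WT embryos. These were 3 of 6 members kept, where 14.6% of 9550 genes passed (limma), 1370 of them higher and 24 lower. The median log2 change over all genes was 0.75, and it was 0.03 after median ratio scaling, so changes relative to that median are given beside the fitted ones. The share of Rn45s, the ribosomal RNA precursor, was 21.0 to 68.6% of the summed FPKM in WT and 11.7 to 52.4% in mKO.

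Gdf3 was at 0.277, 3.80, 0 and 0.458 FPKM in WT 1 to 4 and at 3.46, 6.42, 4.59 and 10.3 FPKM in mKO 1 to 4. The groups overlapped only through WT 2, and the log2 change was 1.97 (1.22 relative to the median; SE 0.51, limma adjusted p = 0.0214). Tdgf1 was at 8.33, 2.53, 0.395 and 4.67 FPKM in WT and 7.56, 37.3, 16.8 and 23.4 FPKM in mKO, again with 1 value out of order (log2 change 2.27, 1.53 relative to the median, SE 0.64, limma adjusted p = 0.0306). The log2 changes of Gdf3 and Tdgf1 were 1.35 and 1.44 after median ratio scaling (limma adjusted p = 0.283 and 0.271) and 2.11 and 2.09 once Rn45s was taken out (0.0769 and 0.0847), which ended both calls. Leaving out mKO 2 or mKO 4 ended all 3 calls, and leaving out WT 2 or WT 3 ended those of Tdgf1 and Id1.

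Id1 was at 13.0, 29.8, 37.4 and 0 FPKM in WT and at 0, 0.528, 1.54 and 0.104 FPKM in mKO. Thus 3 WT libraries lay above all mKO libraries and WT 4 was at or below them. The log2 change was -2.98 (-3.72 relative to the median, SE 0.84, limma adjusted p = 0.0308). The call ended with no filter (limma adjusted p = 0.19) and with median ratio scaling (0.215). Id1 reached 1 FPKM in 3 WT libraries and 1 mKO library, so it was kept for the test only through WT. Its direction was thus partly set by the filter. The single mHet library was at 0.787 FPKM. With WT 4 as the only WT library, an alternative chosen after seeing the data, the change turned to 0.52 (limma adjusted p = 0.508). The labels' library numbers list the genotypes at E4.25 in 2 successive sets, which no label calls batches. In the first, Id1 was at 13.0 and 29.8 FPKM in WT against 0 and 0.528 FPKM in mKO, and in the second it was at 37.4 and 0 against 1.54 and 0.104 FPKM. With the set as a term, 3 members were called as before.

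The other Id genes and Bmp4 did not pass at E4.25. Id3 stood at 10.5, 10.3, 11.9 and 2.38 FPKM in WT and 10.8, 40.1, 25.9 and 32.4 FPKM in mKO (log2 change 1.57, 0.82 relative to the median, SE 0.63, limma adjusted p = 0.0946). Id2 was at 486, 199, 58.9 and 164 FPKM in WT and 357, 373, 336 and 171 FPKM in mKO, with a log2 change of 0.75 (limma adjusted p = 0.526) that was 0.01 relative to the median and -0.35 after median ratio scaling. Bmp4 ranged from 0.965 to 12.3 FPKM in WT and from 1.74 to 16.9 FPKM in mKO (0.03 relative to the median, limma adjusted p = 0.422). Of 35 other pathway genes 2 passed, both higher in mKO: Cfc1, a co-receptor of the Tdgf1 family (log2 change 1.98, SE 0.52, limma adjusted p = 0.0230), and Trim33, a nuclear partner of Smads (1.39, SE 0.42, limma adjusted p = 0.0393). The list's median log2 change, 0.50, was below that of all genes.

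Marker sums of the embryo's lineages ranged higher in mKO at this age, where 86.2% of all genes had a positive change. These sums are not relative to the median of all genes. Trophectoderm markers (6 genes) summed to 35.2 to 334 FPKM in WT and 264 to 1025 FPKM in mKO, ranges that overlap, largely through the keratins Krt8 and Krt18. Cdx2 was at 0 to 2.67 FPKM in WT and 8.27 to 12.7 FPKM in mKO, but Tfap2c ran the other way in WT 1 and 2 (120 and 43.3 FPKM, against at most 19.3 FPKM in mKO). Elf5 did so in WT 1 (8.78 FPKM, against at most 3.38 FPKM in mKO). Primitive endoderm markers (5 genes) summed to 4.91 to 29.6 FPKM in WT and 40.8 to 54.6 FPKM in mKO, most of it Gata6. The others, Gata4, Sox17, Pdgfra and Sox7, overlapped between the genotypes. Markers of the inner cell mass (5 genes) summed to 16.0 to 19.6 FPKM in WT and 34.8 to 83.1 FPKM in mKO, and Pou5f1 was at most 1.39 FPKM in WT. Pou5f1 and Klf2 did not overlap between the genotypes, while Sox2, Nanog and Fgf4 did. Sox2 was at 8.24 FPKM in WT 1 against 4.17 FPKM in mKO 1, and Nanog at 4.86 FPKM in WT 4 against 1.51 FPKM in mKO 1. Genes of decidua and maternal blood (5 listed) summed to 0 to 9.32 FPKM in WT and at most 0.554 FPKM in mKO, with the highest value in WT 3. Amn, of visceral endoderm, was at 13.3 and 13.5 FPKM in WT 1 and 2 and at most 4.05 FPKM in the other libraries. The part of these tissues in the 3 calls was not tested.

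**Figure D4:**
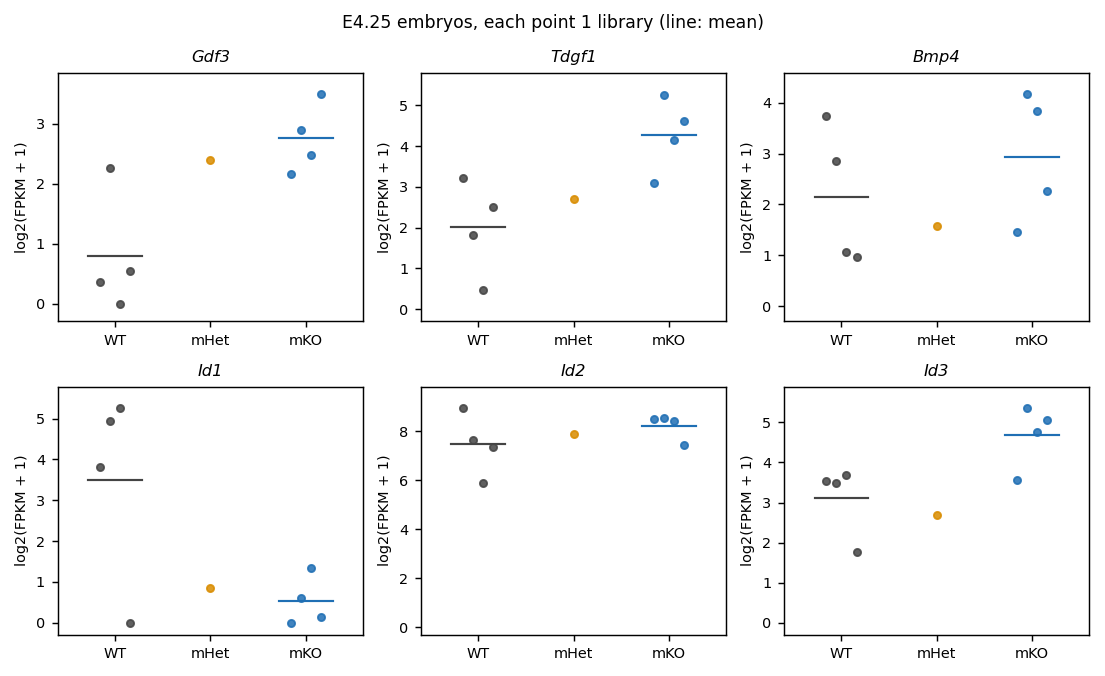
Level of the 6 genes kept at E4.25 as log2(FPKM + 1), by genotype, each point 1 library with a line at the mean (the identical mHet libraries appear as 1 point). Id1 is high in 3 WT libraries and low in WT 4, mHet and all mKO, while Gdf3 and Tdgf1 lie higher in mKO.

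Both E3.5 tables, of blastocyst age, gave no call among 5 members kept (Tdgf1, Gdf3, Bmp4, Id2 and Id3). In the second, with 5 libraries a genotype, 0.0539% of genes passed in mKO against WT (limma), 0% in mHet against WT and 0.0108% in mKO against mHet. At an unadjusted p under 0.05 stood 1, 0 and 0 members, beside 5.76%, 1.62% and 6.22% of all genes. Id2, highly expressed in trophectoderm, was at 159, 225 and 333 FPKM as the lowest, median and highest in WT, 161, 207 and 337 FPKM in mHet and 68.4, 121 and 191 FPKM in mKO. The mKO range overlapped WT, and the log2 change of -1.04 did not pass (-0.94 relative to the median of all genes, SE 0.45, limma unadjusted p = 0.0327, limma adjusted p = 0.779). Over the alternatives the change ran from -1.22 to -0.85. Rn45s held 11.3 to 41.8% of the summed FPKM in WT and 9.19 to 69.5% in mKO. The library mKO 4 had the highest share and the fewest genes at 1 FPKM (4940), with Id2 at 70.4 FPKM. Id2 was at 68.4 FPKM in mKO 6, where the share was 36.3%. Trophectoderm markers (6 genes) summed to 270 to 675 FPKM in WT and 153 to 646 FPKM in mKO, and their part in the Id2 value was not tested.

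Tdgf1 had medians of 8.17 FPKM in WT, 5.34 in mHet and 6.99 in mKO, and Gdf3 had 5.11, 8.40 and 7.51 FPKM. Id3 had 7.33, 9.07 and 9.35 FPKM, with 1 mKO library at 46.9. Bmp4 had medians under 1 FPKM in all genotypes. All 4 genes overlapped between the genotypes.

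In the first E3.5 table Id2 was at 406 and 642 FPKM in WT, 441 and 440 FPKM in mHet and 382 and 189 FPKM in mKO. Both mKO values lay below both WT values, and the log2 change of -0.92 did not pass (SE 0.66, limma adjusted p = 0.949). The median of all genes moved by 0.22 in mKO and 0.43 in mHet there. Calls covered 0.0407% of genes in mKO against WT, 0% in mHet against WT and 0.0407% in mKO against mHet (limma), with 0 of 5 members at an unadjusted p under 0.05 in each, beside 5.48%, 7.75% and 5.42% of all genes. Y-linked transcripts were present in all 4 WT and mHet libraries and in neither mKO library, so sex and mKO cannot be told apart in that table.

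**Figure D5:**
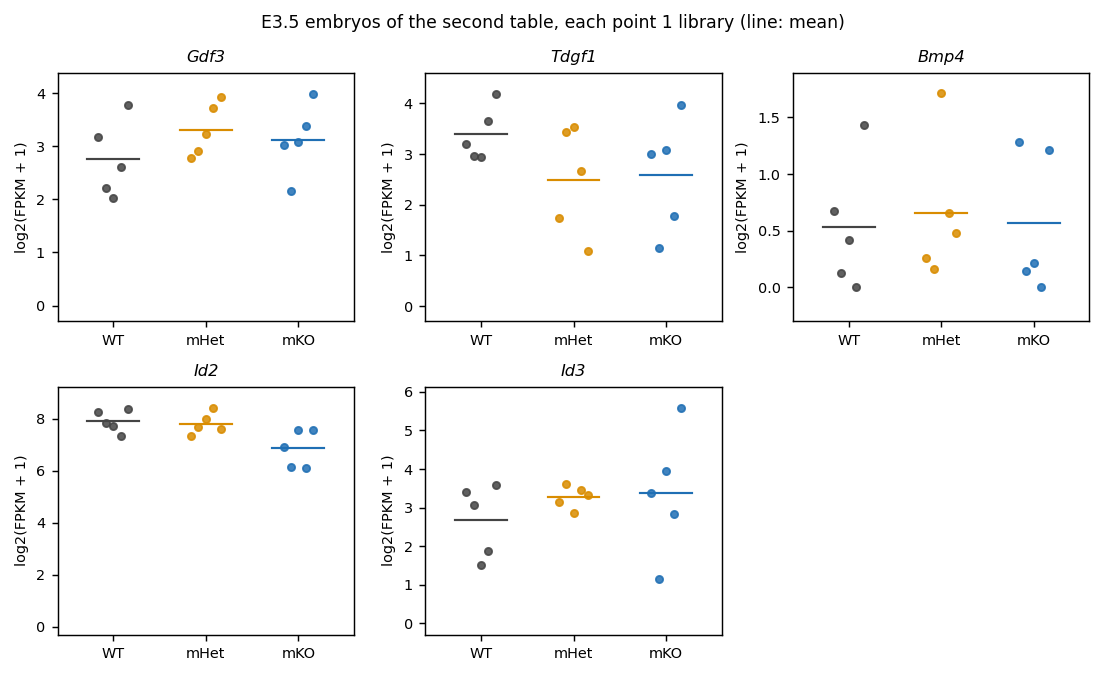
Level of the 5 genes kept in the second E3.5 table as log2(FPKM + 1), by genotype, each point 1 library with a line at the mean (n = 5 a genotype). Id2 has its lowest libraries in mKO and overlaps WT, and the other 4 genes overlap throughout.

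Before the blastocyst no member passed in any comparison. In 8-cell embryos 0.012% of genes passed in mKO against WT, and 1 of 5 members had an unadjusted p under 0.05, beside 4.01% of all genes. This was Id2, at 3.58 and 2.73 FPKM in WT and at 0.872, 0.965 and 1.37 FPKM in mKO, groups that did not overlap (log2 change -1.01, SE 0.32, limma adjusted p = 0.999). Id2 and Id1 were the 2 of 5 members below both WT libraries in every mKO library, where 9.15% of genes were, and for Id1 the gap was from 2.30 to 2.31 FPKM. Id2 reached 1 FPKM in both WT libraries and in 1 mKO library, so it was kept only through WT. Its p-value and its place in this count were partly set by the filter. The labels number the libraries, and these numbers list the genotypes in 2 successive sets, which no label calls batches. Within the first set Id2 was at 3.58 in WT against 0.872 and 0.965 FPKM in mKO, and within the second at 2.73 against 1.37 FPKM. Id3 ranged from 112 to 392 FPKM and Tdgf1 from 30.4 to 133 FPKM over the 8-cell libraries, with genotypes that overlapped.

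In late 2-cell embryos calls covered 0.00969% of genes in mKO against WT, 0% in mHet against WT and 0.0872% in mKO against mHet (limma), with 1, 1 and 0 of 6 members at an unadjusted p under 0.05 beside 7.56%, 2.94% and 9.37% of all genes. Id3 was at 0.203 and 0.309 FPKM in WT, 0.718 and 1.90 FPKM in mHet and 2.65 and 2.63 FPKM in mKO. The genotypes did not overlap, and the log2 change in mKO against WT was 1.54 (SE 0.36, limma adjusted p = 0.379). Of the 6 members, 5 were above both WT libraries in both mKO libraries (all but Gdf3), where 13.7% of genes were. Nodal, Tdgf1 and Id3 reached 1 FPKM in no late 2-cell WT library, so they were kept only through mKO and mHet libraries. Their place in this count was partly set by the filter. Id2 was at 36.3 and 10.6 FPKM in mKO against 9.99 and 10.1 FPKM in WT, so that order rests on small gaps. Nodal was at 2.51 and 1.03 FPKM in mKO and 0.403 and 0.586 FPKM in WT.

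In oocytes and 1-cell embryos only Id2 and Id3 were kept. Calls covered 0.0102% of genes in KO against WT oocytes, 0% in Het against WT and 0.0102% in KO against Het, and 0.0116%, 0% and 0.0116% of genes in the same comparisons (mKO, mHet) of 1-cell embryos (limma). No member had an unadjusted p under 0.05 there, where 0.112%, 0.0713% and 0.0917% of all genes did in the oocytes and 2.49%, 0.837% and 1.86% in the 1-cell embryos. Oocyte Id3 was at 1.06 and 13.1 FPKM in WT, 5.25 and 16.1 FPKM in Het, and 1.05, 2.64 and 7.83 FPKM in KO. The higher value of each genotype was its last library, and these 3 libraries form the second of 2 successive sets in the labels' library numbers. Id2 was at 2.35 and 3.33 FPKM in 1-cell WT embryos and 3.06 and 8.18 FPKM in mKO.

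For 3 members the genes with the most similar course over WT group means were sought among 6534 genes, by Pearson's r of log2(FPKM + 1). The courses nearest to Nodal over 9 means were those of Dpysl2 (r = 0.993), Tspan6 (0.983) and Mogat2 (0.979), all highest in the epiblast. Nearest to Bmp4, over the 6 means of tables that list it, were Igf2 (0.986) and Polg (0.977). Id1 was followed over 9 means by Slc40a1 (0.953), Dusp9 (0.944) and Hmox1 (0.937). The means come from tables normalized apart and are few, so these values only describe.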

How the data were processed

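FPKM per gene and library is what the authors deposited, in 8 tables. The submitters' processing notes list HISAT2 2.2.1, HTSeq 0.6.0 and Trim Galore 0.4.2, with mm9 and hg19 as builds whose role is not stated. No source used here names the program behind FPKM, its annotation or its use of strand. Depth is unknown: no step worth 1 read was found (the commonest ratio of low values covered at most 1.39% of low genes).

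A gene had to reach 1 FPKM in 2 or more libraries of its table. Each table was fitted alone with all genotypes, and E6.5 tissues together, on log2(FPKM + 1) with limma 3.58.1 in R 4.3.3 (eBayes with a trend). Changes on that scale understate low genes. Two-sided p-values were adjusted by the Benjamini-Hochberg method across a table, at a threshold of 0.05. Epiblast columns carry numbers 3 and 4 and were matched to their group alone. Gene names turned into dates (25, 27 and 27 in 3 tables) were dropped. The fit was tested on simulated data.

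The members, the pathway and marker lists and the alternatives were chosen with earlier results of these data known. Named genes are the members, up to 4 pathway genes a direction and comparison past the threshold by size of change, markers and the 3 nearest courses, of which 1 is not reported here. Alternatives were a pseudocount of 0.1, no filter, median ratio scaling, Rn45s removed, fitting only the 2 groups compared, a replicate block, the set of library numbers, sex, WT alone and each library left out.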

Additional observations from a re-analysis of the deposited data

Results flagged for a closer look

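In groups of 4 or 5 libraries, 4 of 27 groups of a member had a library far from the others by Dixon's test on FPKM. The test's rate of about 1 group of 20 by chance holds for normally distributed values. Whether FPKM are so distributed was not tested, so the count is not set against that rate. Bmp4 was at 2.29 FPKM in mHet library 5 of the second E3.5 table, where the others ran from 0.117 to 0.574 FPKM. Id3 was at 46.9 FPKM in mKO library 7 of that table, where the others ran from 1.22 to 14.5 FPKM. At E4.25, Gdf3 was at 3.80 FPKM in WT 2 (others 0 to 0.458 FPKM), and Id3 was at 2.38 FPKM in WT 4 (others 10.3 to 11.9 FPKM).

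Id1 and Id2 lay above both WT libraries in both late 2-cell mKO libraries and below both in all 3 8-cell mKO libraries, as did 13.7% and 9.15% of all genes. Both orders hold near ties, with late 2-cell Id2 at 10.6 FPKM in mKO 2 against 10.1 FPKM in WT 2 and 8-cell Id1 at 2.30 FPKM in mKO 1 against 2.31 FPKM in WT 2. At the 8-cell stage Id2 was kept only through WT libraries. The log2 changes were 1.13 and -0.73 for Id1, a difference of 1.86, and 0.91 and -1.01 for Id2, a difference of 1.92. The difference between these stages was not tested, and none of the 4 changes passed by itself.

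The single mHet libraries entered no comparison. The 8-cell mHet library held Tdgf1 at 78.6 FPKM, above WT at 30.4 and 70.3 FPKM. It also held Id1 at 0 FPKM, below WT at 2.75 and 2.31 FPKM, and Id2 at 0.472 FPKM, below WT at 3.58 and 2.73 FPKM. The E4.25 mHet library held Gdf3 at 4.26 FPKM, above every WT library (0 to 3.80 FPKM). The share of all genes outside the WT range in these libraries was not computed.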

How the results depend on the processing

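The count of members called was the same, or within 1.5 times, under every alternative in 19 of 26 comparisons, and 614 of 615 values of 42 member changes kept their direction. The exception was Id1 at E4.25 with WT 4 as the only WT library (0.52), and the cause of these changes was not tested unless stated. At E4.25, 3 calls became 1 with a pseudocount of 0.1 and 0 with no filter, median ratio scaling, Rn45s removed or WT 4 as the only WT library, and 0 to 3 with a library left out; all genes called there fell from 1394 to 24 with median ratio scaling, which removes the shift of the median. In mHet against WT epiblast, 2 calls became 0 with a pseudocount of 0.1, no filter, median ratio scaling or the epiblast libraries fitted alone (with or without the column number as a replicate block, chosen after seeing the data), and 0 to 2 with a library left out. With the 2 groups alone there was 1 call, Id2, and neither of the 2. Between the tissues, 8 calls became 7 with WT libraries alone, where both Lefty calls ended and Id1 passed. The sex term gave 1 call (Lefty1) in mKO against mHet epiblast, against 0. With a library left out, counts ran from 0 to 1 in the first E3.5 mHet against WT (1 without WT 2) and in extraembryonic ectoderm mKO against WT (1 without WT 2), from 0 to 2 in its mHet against WT and from 0 to 4 in the mHet interaction (2 and 4 without mHet 1 of that tissue).

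Same-numbered libraries correlated in all pairs at the 1-cell stage (r = 0.515 to 0.557), the late 2-cell stage (0.213 to 0.257) and in the first E3.5 table (0.155 to 0.571), but these have 2 pairs each and no label ties the numbers, so they were not taken as pairs. In the second E3.5 table r ran from -0.406 to 0.701 and at E4.25 from 0.0586 to 0.14. A replicate block left 3 calls at E4.25 and 0 in the other comparisons outside the epiblast that it covered. Crossed numbers gave 0 calls in extraembryonic ectoderm mKO against mHet (r = -0.162) and 2 in epiblast mHet against WT (r = -0.359), where column numbers 3 and 4 were used. These 2 were Id1 and Id2 (limma adjusted p = 0.00497 for Id2), while the Lefty1 call ended (0.0579). Depth is unknown, so values near 0 FPKM carry no detection limit.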
